A study of Mus musculus with 16 samples.

Results

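Slc10a6, Map3k6, Acer2, Grrp1 and Tmem252 are 5 genes of the 35415 in the deposited tables of mouse gastrocnemius muscle, and they were chosen by their symbols, on values that showed higher transcript levels in tumor-bearing than in tumor-free mice. All 5 were among the 14749 genes that had enough counts to be tested. T compared with C was taken as the contrast behind that choice and is given as a description with no test. Whether values of TE and E mice were also in view is not known. The gastrocnemius of 16 male wild-type BALB/c mice, 8 weeks old at purchase, was sequenced as polyA RNA, with 4 separate mice in each group. Control (C) mice were tumor-free and not trained, exercise (E) mice were tumor-free and trained, tumor-bearing (T) mice were not trained, and tumor-bearing + exercise (TE) mice carried the tumor and were trained. The tumor was made by injecting CT26 cells, a colon carcinoma line of BALB/c origin, under the skin of the left hind limb, and C and E mice received saline there under the same anesthesia. Trained mice ran on a treadmill for 4 weeks from the day after inoculation, with sessions of 60 min on 6 days of each week and a speed of 14 m/min, and C and T mice were placed daily on a treadmill that did not move. Which side the sequenced muscle came from is not given in the sources used here, and T and TE mice represent a single tumor cell line.

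Slc10a6 encodes a sodium-dependent carrier that takes sulfated steroids into cells and belongs to the family of the bile acid carriers. Map3k6, also called ASK2, is a stress-responsive kinase that forms a complex with its relative ASK1 (Map3k5) and acts above the JNK and p38 kinases. Acer2 is an alkaline ceramidase of the Golgi, which splits ceramide into sphingosine and a fatty acid, and sphingosine is the substrate from which sphingosine-1-phosphate is made. Grrp1 is the symbol in the deposited tables for the gene that GENCODE names Fam110d, a member of the Fam110 family, and Tmem252 encodes a transmembrane protein. Muscle wasting in tumor-bearing animals is known to involve inflammatory cytokines such as IL-6, which signals through STAT3, and glucocorticoid hormones, which act through a nuclear receptor.

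In GRCm39, 3 of the 5 genes lie on chromosome 4. Acer2 spans chr4:86792537-86853061 on the plus strand with 6 exons in its canonical transcript, Map3k6 spans chr4:132968091-132980241 on the plus strand with 29 exons, and Grrp1 spans chr4:133978398-133981439 on the minus strand with 2 exons. Map3k6 and Grrp1 are 998156 bases apart, with 31 protein-coding genes between them. Slc10a6 spans chr5:103753575-103777401 on the minus strand with 6 exons, and Tmem252 spans chr19:24651363-24659757 on the plus strand with 2 exons. Exons of Acer2 and Tmem252 overlap exons of antisense long noncoding RNAs, and the strand setting of the counting is not given in the sources used here, so reads of these genes and their antisense partners cannot be told apart.

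The 250 bases before the start of the canonical transcript were searched on both strands for 6 motifs, in the 5 genes and in all 21770 protein-coding promoters of the GENCODE annotation. A palindromic form of the site bound by the glucocorticoid receptor occurred before 2 of the 5 genes, Slc10a6 at bases -163 to -151 and Map3k6 at bases -148 to -136, and before 65 promoters (0.299%) in all. The letters TTCNNNGAA (STAT factors, 7.7% of promoters), TTGCNNAA (C/EBP, 9.34%), TGANTCA (AP-1, 6.17%) and those of an NF-kB site (1.47%) were in 0 of the 5 windows, and CAGGAAG (ETS factors, 9.87%) was in that of Grrp1. The 2 windows with the first motif are shown for their matches, 5′ to 3′ on the strand of the gene and ending at the outermost annotated start of the gene, with the matching letters in capitals. The Slc10a6 sequence is chr5:103777402-103777519 on the minus strand and the Map3k6 sequence is chr4:132967846-132968090 on the plus strand, both from the GRCm39 reference, which comes from C57BL/6J and not from BALB/c mice. Binding was not measured, and a match of letters is a description only.
Slc10a6: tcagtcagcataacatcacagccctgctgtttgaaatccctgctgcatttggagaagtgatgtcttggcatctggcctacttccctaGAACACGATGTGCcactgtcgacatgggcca
Map3k6: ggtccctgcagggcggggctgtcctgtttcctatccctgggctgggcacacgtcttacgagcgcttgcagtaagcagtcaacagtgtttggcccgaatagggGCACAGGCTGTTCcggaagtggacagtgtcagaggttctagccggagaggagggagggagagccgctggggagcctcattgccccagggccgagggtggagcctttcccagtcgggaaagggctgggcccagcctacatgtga

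The libraries held 35628211 to 37635741 counts each, and all carry the same batch number in the labels. The skeletal muscle fiber list of 17 markers summed to 84700 to 97600 FPKM (counts scaled by gene length and library total) in the 16 libraries, with no member at 0. The 18 lymph node markers summed to 166 FPKM in TE mouse 4 and to 7.8 FPKM in the lowest TE mouse, and they lay between 10.2 and 58.4 FPKM in C, 15.6 and 49.5 in E and 6.61 and 12.4 in T mice. Neutrophil markers summed to 1.96 to 18.3 FPKM in C, 2.24 to 9.65 in E, 16.2 to 90.0 in T and 21.4 to 41.7 in TE mice. Erythroid markers summed to 362 to 529 FPKM in C, 393 to 582 in E, 736 to 823 in T and 864 to 1270 in TE mice. Their part in the values of the 5 genes was not tested beyond the correlations within groups given below.

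Slc10a6, the steroid sulfate carrier, was low in tumor-free muscle and higher in tumor-bearing muscle. In mice 1 to 4 its level was 0.396, 0.781, 0.945 and 0.818 FPKM in C and 0.892, 1.22, 0.738 and 0.81 FPKM in E. In mice 1 to 4 it was 1.71, 3.78, 4.17 and 2.6 FPKM in T and 1.05, 1.86, 1.9 and 3.37 FPKM in TE. All T mice were above all tumor-free mice, whereas TE mouse 1 lay below the highest E mouse. The means were 0.735 ± 0.236 FPKM in C, 0.916 ± 0.215 in E, 3.07 ± 1.12 in T and 2.05 ± 0.967 in TE (SD, n = 4).

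Map3k6, the stress kinase, was the gene whose trained tumor-free mice were most spread. Its level in mice 1 to 4 was 0.759, 0.735, 0.449 and 0.619 FPKM in C and 0.706, 2.23, 1.04 and 1.56 FPKM in E. It was 2.23, 2.1, 2.56 and 1.75 FPKM in T and 1.4, 1.99, 2.02 and 2.4 FPKM in TE. E mouse 1 stood among the C mice, and E mice 2 and 4 were above the lowest TE mouse. The coefficient of variation was 48.1% in E and 22.1% in C, with means of 1.39 ± 0.666 and 0.64 ± 0.142 FPKM, against 2.16 ± 0.334 in T and 1.96 ± 0.413 in TE (SD, n = 4).

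Acer2, the Golgi ceramidase, had a pattern over groups like that of Map3k6. Its level in mice 1 to 4 was 1.29, 1.97, 1.48 and 1.55 FPKM in C and 1.45, 3.32, 2.02 and 2.8 FPKM in E. It was 2.98, 3.89, 4.8 and 4.82 FPKM in T and 3.01, 2.49, 3.13 and 4.23 FPKM in TE. E mice 2, 3 and 4 were above all C mice, and E mouse 2 was also above the lowest T mouse. The means were 1.57 ± 0.285 FPKM in C, 2.4 ± 0.827 in E, 4.12 ± 0.876 in T and 3.21 ± 0.73 in TE (SD, n = 4).

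Grrp1, of the Fam110 family, kept tumor-bearing and tumor-free mice apart with or without training. Its level in mice 1 to 4 was 1.44, 1.62, 1.04 and 1.1 FPKM in C and 1.31, 1.6, 1.59 and 2.19 FPKM in E. It was 4.89, 2.9, 4.82 and 3.23 FPKM in T and 3.96, 3.1, 2.7 and 3.36 FPKM in TE. The lowest tumor-bearing mouse, TE mouse 3, was above the highest tumor-free mouse, E mouse 4. The means were 1.3 ± 0.278 FPKM in C, 1.67 ± 0.37 in E, 3.96 ± 1.04 in T and 3.28 ± 0.527 in TE (SD, n = 4).

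Tmem252 had the lowest tumor-free levels of the 5 genes and the widest spread in tumor-bearing mice. Its level in mice 1 to 4 was 0.308, 0.508, 0.279 and 0.325 FPKM in C and 0.55, 0.27, 0.453 and 0.455 FPKM in E, which rested on 24 to 50 counts per library. It was 1.62, 2.04, 7.72 and 1.27 FPKM in T and 1.11, 0.563, 2.24 and 2.8 FPKM in TE. T mouse 3 stood far above the others, and TE mouse 2 was just above the highest tumor-free mouse. The means were 0.355 ± 0.104 FPKM in C, 0.432 ± 0.117 in E, 3.16 ± 3.05 in T and 1.68 ± 1.02 in TE (SD, n = 4).

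**Figure D1:**
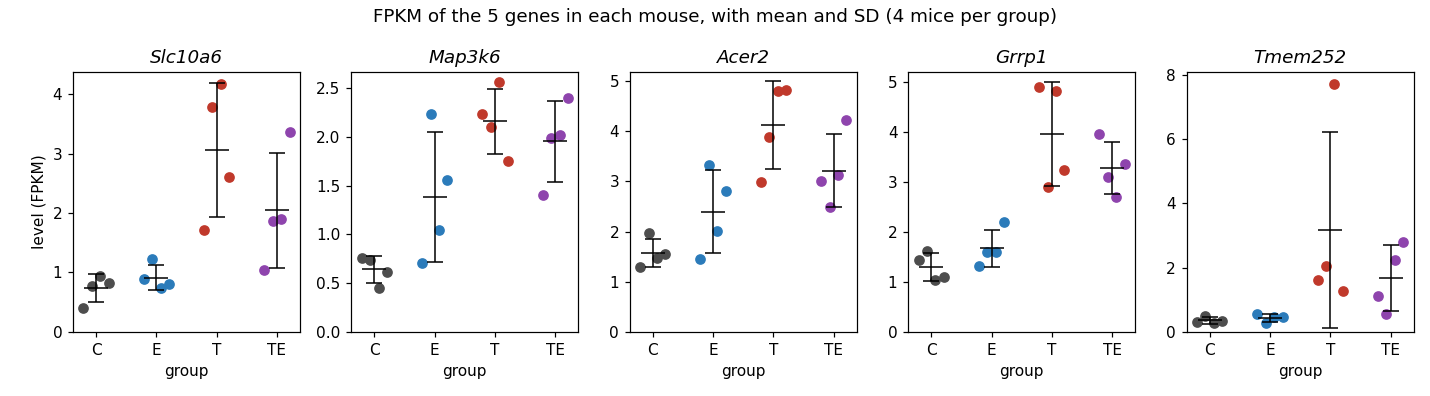
Level of each of the 5 genes in FPKM (vertical axis, linear, starting at 0) in the C, E, T and TE groups, with a point per mouse and bars for the mean and SD of 4 mice. Group means rise in the order C, E, TE, T in every panel, and T mouse 3 at 7.72 FPKM sets the wide bar of Tmem252. The choice of the genes favors C as lowest and T as highest in advance.

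The means of all 5 genes stood in the order C, E, TE, T. Choosing genes that were high in T and low in C favors C as the lowest and T as the highest mean in advance. Neighbours in this order overlapped between mice, except E and TE for Grrp1 and Tmem252. In T compared with C, the contrast taken to have chosen the genes, the fitted fold change was 4.23 for Slc10a6, 3.43 for Map3k6, 2.67 for Acer2, 3.1 for Grrp1 and 8.93 for Tmem252, and the groups did not overlap for 5 of 5 genes. Of all tested genes, 2.64% had T mice above all C mice, and 0.515% were called higher and 0.163% lower in T by edgeR at an adjusted p under 0.05. Without T mouse 3, the log2 fold change of Tmem252 was 2.25 in place of 3.16. In bulk muscle, a change in the share of the cells that make a transcript and a change in the transcript per cell cannot be told apart.

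Whether the same genes were raised by the tumor in trained mice was asked in TE compared with E, which shares no mouse with T compared with C. The spread in edgeR was estimated from all 16 libraries, T and C mice among them, so its p-values are not fully separate from that contrast. If values of TE and E mice also had a part in the choice, the tests of TE compared with E are not independent of it. All 5 were higher in TE, and 1 of 5, Grrp1, passed edgeR's quasi-likelihood test after Benjamini-Hochberg adjustment over all tested genes, where 0.115% of genes were called higher and 0.115% lower. Grrp1 was 2.02 times as high (log2 fold change 1.02, SE 0.202, adjusted p = 0.0452 by edgeR), and its TE and E mice did not overlap (exact permutation p = 0.0286, two-sided, the smallest that 4 against 4 mice allow). The call was near the threshold. It was lost in 11 of 16 fits that left out a single mouse, with adjusted p between 0.0522 and 0.201 by edgeR in these 11, while the log2 fold change lay between 0.91 and 1.19 in all 16. Leaving out any TE mouse lost the call, and without TE mouse 4, which had the high lymph node markers, the log2 fold change was 1.02 (adjusted p = 0.113 by edgeR).

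Tmem252 had the largest fitted difference of the 5 between TE and E, with a log2 fold change of 2.00 (SE 0.543), a 95% interval of 0.85 to 3.14 and adjusted p = 0.168 by edgeR. Its TE and E mice did not overlap (exact permutation p = 0.0286, two-sided), so 2 of 5 genes had separate groups, and 1.17% of all tested genes had TE mice above all E mice. Slc10a6 had a log2 fold change of 1.20 (SE 0.33), a 95% interval of 0.51 to 1.9 and adjusted p = 0.179 by edgeR, with an exact permutation p of 0.0571 (two-sided). It was highest among TE mice in TE mouse 4, without which its log2 fold change was 0.88 (adjusted p = 0.446 by edgeR). Within groups, Slc10a6 had r = 0.652 with the mean of the lymph node markers, each scaled to unit SD (rho = 0.665, permutation p = 0.0243 for r and 0.00575 for rho, adjusted p = 0.198 and 0.124 over 65 tests). That r was 0.464 without C mouse 3 and TE mouse 4. With the muscle fiber markers, Slc10a6 had r = -0.647 (rho = -0.732, permutation p = 0.0235 for r and 0.00762 for rho, adjusted p = 0.198 and 0.124 over the same tests). This r was also -0.647 without C mouse 1 and TE mouse 3. The log2 fold changes between TE and E were smaller for Map3k6 (0.54, SE 0.268, 95% interval -0.02 to 1.11, adjusted p = 0.567 by edgeR) and Acer2 (0.47, SE 0.216, 95% interval 0.01 to 0.92, adjusted p = 0.529 by edgeR), and both genes had an exact permutation p of 0.2 (two-sided). Without E mouse 1 these log2 fold changes were 0.32 and 0.29, and without E mouse 2 they were 0.88 and 0.67. Without adjustment, 4 of 5 genes were under 0.05 in edgeR, all but Map3k6, where 3.7% of tested genes were higher in TE at that level. DESeq2, which called 179 genes where edgeR called 34, gave adjusted p-values of 0.0232 for Slc10a6, 0.000404 for Grrp1 and 0.0488 for Tmem252. Other alternatives called none of the 5, with adjusted p for Grrp1 of 0.0917 in edgeR with a replicate block and 0.0593 to 0.154 in limma on log2 FPKM.

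**Figure D2:**
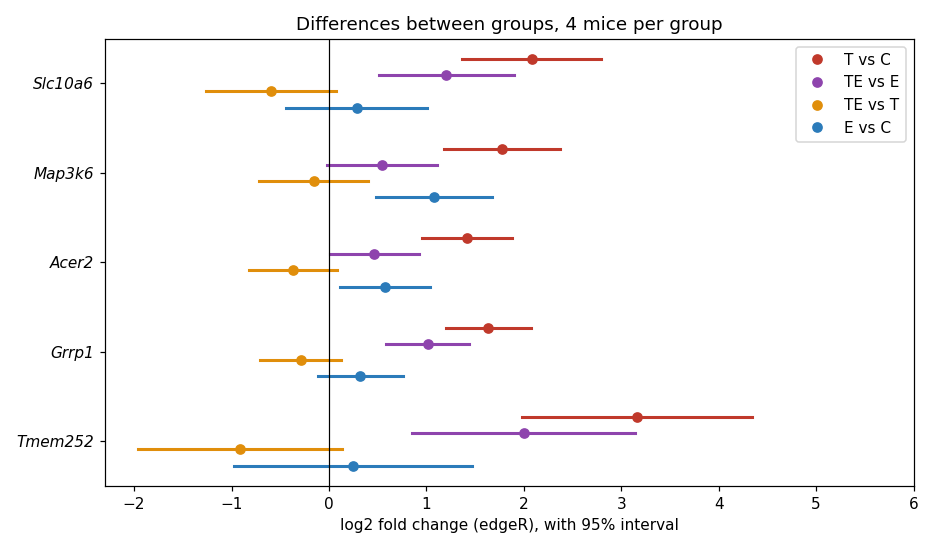
Log2 fold change of each gene (horizontal axis) with its 95% interval from edgeR, for T compared with C, TE with E, TE with T and E with C, from 4 mice per group. TE compared with E lies to the right of 0 for all 5 genes, and TE compared with T lies to the left of 0 for all 5. Choosing genes that were high in T favors the left side for TE compared with T. The intervals reach past 0 for all 5 genes in TE compared with T and for Map3k6 (-0.02 to 1.11) in TE compared with E.

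How trained mice differed from untrained ones was read from TE compared with T and from E compared with C, which share the T or C mice with T compared with C and are given as values with no test. Choosing genes that were high in T and low in C tends to lower the former and raise the latter in advance. In TE compared with T all 5 fitted values were below 0. They were -0.59 for Slc10a6 (95% interval -1.26 to 0.07), -0.16 for Map3k6 (-0.72 to 0.4), -0.37 for Acer2 (-0.82 to 0.08), -0.29 for Grrp1 (-0.71 to 0.12) and -0.92 for Tmem252 (-1.96 to 0.13) on the log2 scale. TE and T mice overlapped for 5 of 5 genes, and 0.976% of all tested genes had TE mice below all T mice. Single mice moved these values. Without T mouse 3 that of Tmem252 was -0.003 and that of Map3k6 -0.08, and without T mouse 1 that of Grrp1 was -0.15. Slc10a6 had -0.38 without TE mouse 1 and -0.92 without TE mouse 4, and Map3k6 had -0.02 without TE mouse 1, -0.24 without T mouse 4 and -0.25 without TE mouse 4.

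In E compared with C, the fitted values were highest for the kinase and the ceramidase, and the intervals of all 5 genes overlapped each other. Map3k6 was 2.11 times as high in E (log2 fold change 1.08, 95% interval 0.48 to 1.67) and Acer2 1.49 times (0.58, 0.11 to 1.04), and the value of Acer2 was 0.38 without E mouse 2. The log2 fold change was 0.29 for Slc10a6 (-0.44 to 1.01), 0.32 for Grrp1 (-0.11 to 0.76) and 0.24 for Tmem252 (-0.98 to 1.47). Slc10a6 had 0.09 without C mouse 1 and 0.11 without E mouse 2, and Grrp1 had 0.15 without E mouse 4. Tmem252 had 0.46 and 0.14 without C mice 2 and 3 and 0.11 and 0.41 without E mice 1 and 2. E and C mice overlapped for 5 of 5 genes, and 6.28% of all tested genes had E mice above all C mice. The interaction, which is the log2 difference of TE and E minus that of T and C, was -0.88 for Slc10a6 (95% interval -1.86 to 0.1), -1.23 for Map3k6 (-2.05 to -0.42), -0.95 for Acer2 (-1.6 to -0.3), -0.62 for Grrp1 (-1.22 to -0.01) and -1.16 for Tmem252 (-2.77 to 0.45). Without T mouse 3 that of Tmem252 was -0.24. The interaction holds T compared with C, so choosing genes that were high in T lowers it in advance, and it was not tested.

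Whether the genes moved together from mouse to mouse was examined after subtracting the mean of each group from log2 CPM (counts scaled to library size), so that the group differences that chose them had no part. All 5 were above their group means in 3 mice, by a mean log2 deviation of 0.296 in C mouse 2, 0.563 in T mouse 3 and 0.483 in TE mouse 4. T mouse 3 also had the highest sums among T mice for the endothelial (1840 FPKM), glucocorticoid response (1730) and IL-6 and STAT3 (307) lists, and TE mouse 4 had the highest among TE mice for lymph node (166), neutrophil (41.7), erythroid (1270) and macrophage (160) markers and for the IL-6 and STAT3 list (238). C mouse 2 had the highest among C mice for endothelial (1460), erythroid (529), macrophage (120), muscle fiber (97400) and adipocyte (1430) markers. The sphingolipid and carrier lists had their highest sums of these groups in the same 3 mice. The sums were 207, 228 and 221 FPKM and 44.4, 48 and 47.8 FPKM in C mouse 2, T mouse 3 and TE mouse 4. In other cases another mouse was highest. Among these, C mouse 3 was highest for the glucocorticoid response, IL-6 and STAT3 and lymph node lists, and C mouse 1 for neutrophil markers. T mouse 4 was highest for neutrophil and macrophage markers and T mouse 2 for erythroid markers. TE mouse 3 was highest for the endothelial and glucocorticoid response lists. Beyond the correlations of each list with each gene given below, the part of the lists in the shared deviation was not tested. TE mouse 1 had 1 of 5 genes above its group mean, and that gene was Grrp1. The deviations of the 2 E mice at the extremes were shared by Map3k6 and Acer2, both low in E mouse 1 and high in E mouse 2.

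**Figure D3:**
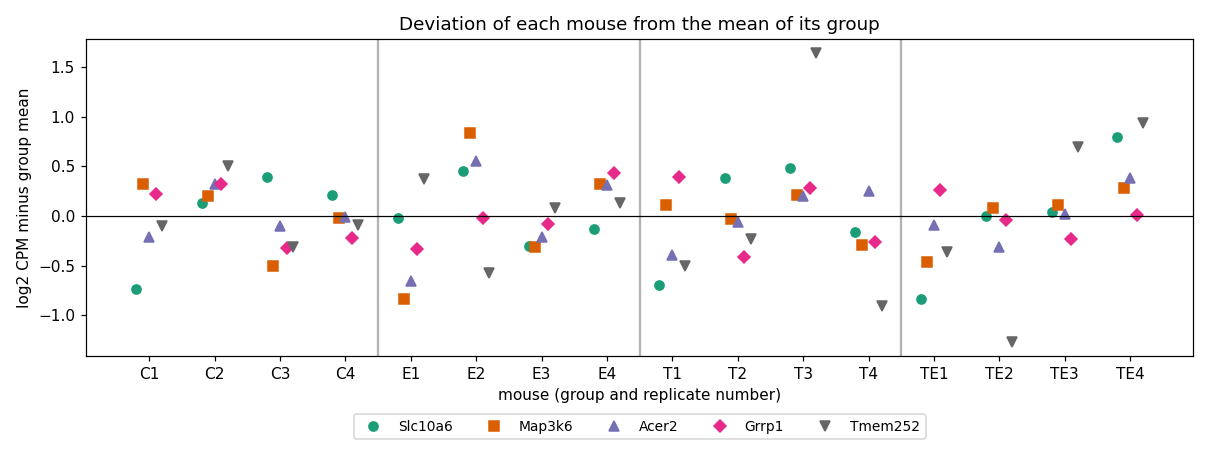
Log2 CPM of each gene minus the mean of its group (vertical axis) in each of the 16 mice (horizontal axis, by group and replicate number), with a symbol per gene. C2, T3 and TE4 have all 5 symbols above 0, and Tmem252 is the highest symbol in T3.

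The correlation over the 16 mice was positive for 9 of 10 pairs of genes, with a median r of 0.241, and 0 of 10 pairs passed a permutation test within groups (two-sided, adjusted over the 10 pairs) by Pearson's r or by Spearman's rho. Without adjustment, 1 pair was under 0.05 by r and 2 pairs were by rho. Map3k6 and Acer2 had the highest r (r = 0.658, permutation p = 0.0581, adjusted p = 0.29; rho = 0.535), which was 0.292 without E mice 1 and 2. Slc10a6 and Acer2 had r = 0.498 (permutation p = 0.0427, adjusted p = 0.29; rho = 0.547), and r was 0.454 without the 2 mice farthest from the median of Slc10a6. Map3k6 and Grrp1, the closest pair on chromosome 4, had r = 0.45 (permutation p = 0.11, adjusted p = 0.365; rho = 0.635), and r was 0.476 without the 2 farthest mice. The pair below 0 was Slc10a6 and Grrp1 (r = -0.406, permutation p = 0.149, adjusted p = 0.372; rho = -0.212). The remaining 6 pairs had r between 0.1 and 0.389. Without TE mouse 4 the median r was 0.22, and without T mouse 3 it was 0.197. With each mouse left out in turn, the median r lay between 0.197 and 0.373.

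The pairs differed between tumor-bearing and tumor-free mice in their values, and the difference was not tested. In the 8 tumor-bearing mice the median r was 0.372, and Slc10a6 had r = 0.674 with Map3k6 (0.169 without TE mice 1 and 4), 0.642 with Acer2 and 0.58 with Tmem252. In the 8 tumor-free mice the median r was 0.147, with r = 0.852 for Map3k6 and Acer2 (exact permutation p = 0.0503, adjusted p = 0.477; r = 0.505 without E mice 1 and 2) and 0.665 for Map3k6 and Grrp1. Tmem252 had r of 0.58, 0.548 and 0.6 with Slc10a6, Map3k6 and Acer2 in tumor-bearing mice and of -0.318, -0.413 and -0.34 in tumor-free mice. Without E mice 1 and 2, the values in tumor-free mice were 0.51 with Map3k6 and 0.699 with Acer2. No pair passed after adjustment in either set of 8 mice.

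**Figure D4:**
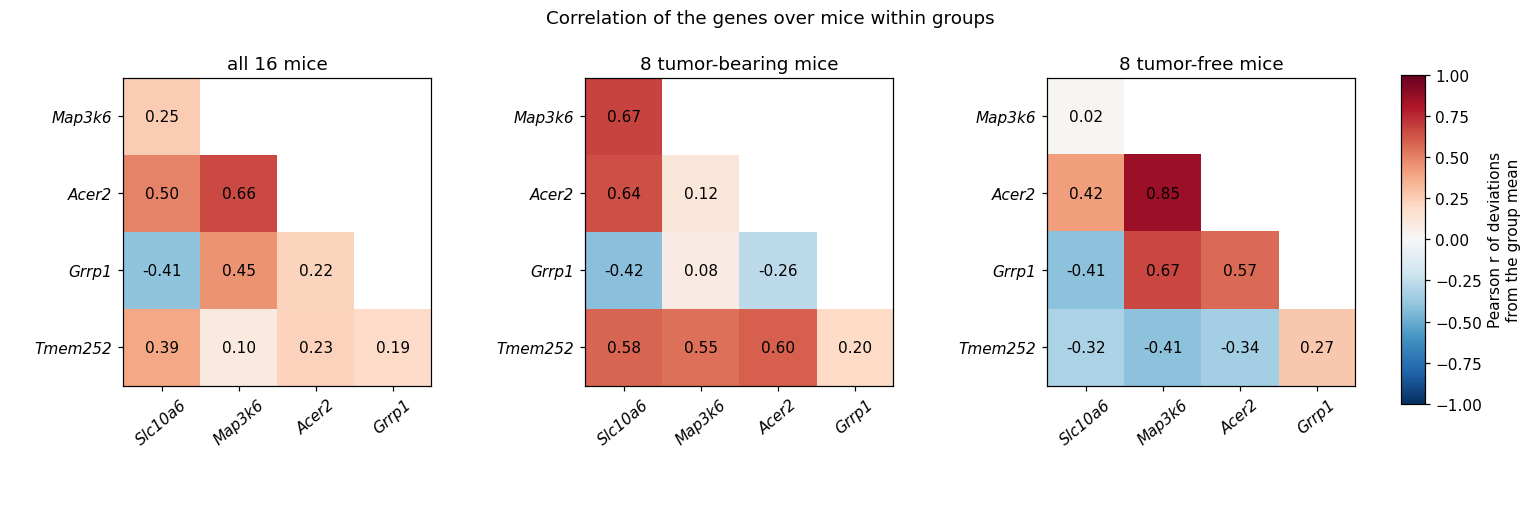
Pearson r of each pair of genes over mice after subtracting group means, in all 16 mice, the 8 tumor-bearing mice and the 8 tumor-free mice, with red for positive and blue for negative r. Slc10a6 and Grrp1 are below 0 in all 3 panels, and the Tmem252 row is positive in the second panel and mostly negative in the third.

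As a description, the r of each gene with every other tested gene was centred near 0. The median r with the 4 other genes was 0.32 for Slc10a6, 0.351 for Map3k6, 0.365 for Acer2, 0.208 for Grrp1 and 0.213 for Tmem252. Between 11.7% (Map3k6) and 29.6% (Tmem252) of all tested genes had a higher r than that with the gene in question. The genes with the highest r to the mean of the 5 were Ifngr1, the interferon gamma receptor (r = 0.873), Bmf, a pro-apoptotic BCL2 relative (0.859), the semaphorin Sema3g (0.844), Mctp1 (0.844) and Nt5e, the ectonucleotidase CD73 (0.843), over 16 mice. In TE compared with E none of these was called by edgeR, and in T compared with C Sema3g was higher (log2 fold change 0.81, SE 0.143, adjusted p = 0.0147 by edgeR).

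The nearest genes of single members were different for each. Slc10a6 was nearest to Gnaz (r = 0.885), the amino acid carrier subunit Slc7a5 (0.883) and Gne (0.872), an enzyme of sialic acid synthesis. Map3k6 was nearest to Cyb561 (0.898), Rnf187 (0.867) and Nudt8 (0.863). Acer2 was nearest to Mphosph6 (0.933), Mctp1 (0.929) and Cyb5r3 (0.921). Grrp1 was nearest to the ephrin receptor Ephb4 (0.833), Rtp3 (0.832) and Acy3 (0.822). Tmem252 was nearest to Nfkbia, the NF-kB inhibitor (0.944), the natriuretic peptide receptor Npr1 (0.903) and the kinase Yes1 (0.899). They are the highest of 14744 values each, over the same 16 libraries.

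The pathways and families of the 5 genes held no other gene that edgeR called between TE and E. Of 35 tested genes of sphingolipid turnover, 13 were higher and 22 lower in TE than in E, 0 were called by edgeR or DESeq2 (3 higher and 4 lower at an unadjusted p under 0.05 in edgeR), and the median log2 fold change was -0.07, against 0.0029 over all tested genes. The other ceramidases were Acer3, with 1.22 FPKM in E and 1.29 in TE (adjusted p = 0.847 by edgeR), the lysosomal Asah1, with 6.27 and 5.37 FPKM, the neutral ceramidase Asah2, with 2.64 and 2.97 FPKM (adjusted p = 0.603 by edgeR), and Acer1, which had no counts in any library. The list's highest genes were the acid sphingomyelinase Smpd1, with 31.3 FPKM in E and 30.2 in TE (adjusted p = 0.996 by edgeR), and the sphingosine-1-phosphate receptor S1pr1, with 28.5 and 38.8 FPKM (adjusted p = 0.294 by edgeR). In T compared with C, 16 genes of the list were higher and 19 lower, with 0 called by edgeR (4 higher and 3 lower unadjusted) and 1 by DESeq2. Of all 14749 tested genes, 2093 were under 0.05 unadjusted in T compared with C and 1361 in TE compared with E. The total called by DESeq2 in T compared with C was not counted.

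Of 33 tested genes of the ASK and stress kinase cascade, 20 were higher and 13 lower in TE than in E, and 0 were called by edgeR or DESeq2 (2 higher and 2 lower unadjusted in edgeR). Their median difference was 0.03 on the log2 scale. Map3k5, the partner of Map3k6, had 1.93 FPKM in C, 2.1 in E, 1.7 in T and 1.74 in TE (TE compared with E, adjusted p = 0.461 by edgeR). The highest of the list were the p38-activating kinase Map2k3, with 74.3 FPKM in E and 81.9 in TE (adjusted p = 0.577 by edgeR), and the p38 target Mapkapk2, with 83.0 and 85.6 FPKM (adjusted p = 0.69 by edgeR). In T compared with C, 18 were higher and 15 lower, with 0 called by edgeR (3 higher and 2 lower unadjusted, against 2093 of all 14749 tested genes) and 1 by DESeq2.

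Of 24 bile acid and organic anion carriers and enzymes that add or remove sulfate groups, 12 were tested, and 5 were higher and 7 lower in TE than in E with 0 called by edgeR or DESeq2 and 0 unadjusted. The relatives Slc10a3 and Slc10a7 had 1.64 and 1.51 FPKM in E and 1.35 and 1.69 FPKM in TE, and Slc10a1 and Slc10a5 had no counts. The highest of the list were Slco3a1, with 11.4 FPKM in E and 10.9 in TE, and the sulfotransferase Sult1a1, with 9.47 and 9.19 FPKM. In T compared with C, 8 were higher and 4 lower, with 0 called by edgeR (3 higher unadjusted, against 2093 of all 14749 tested genes in either direction) and 2 by DESeq2. Fam110a and Fam110b, the tested relatives of Grrp1, had 1.68 and 0.989 FPKM in E and 1.21 and 0.994 FPKM in TE, with 0 called by edgeR or DESeq2 and 1 lower unadjusted.

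Genes of the IL-6 family and STAT3 response were mostly higher in tumor-bearing mice with or without training. In TE compared with E, 18 of 21 tested genes were higher and 3 lower (median 0.31 on the log2 scale), and edgeR called Osmr and Lrg1 (10 higher unadjusted) and DESeq2 called 3. The oncostatin M receptor Osmr had 3.08 FPKM in E and 5.73 in TE (log2 fold change 0.94, SE 0.145, adjusted p = 0.00698 by edgeR), and the secreted glycoprotein Lrg1 had 10.6 and 20.8 FPKM (1.03, SE 0.138, adjusted p = 0.00425 by edgeR). In T compared with C, 16 were higher and 5 lower, with 5 called higher by edgeR (14 higher and 1 lower unadjusted) and 8 by DESeq2. Of all 14749 tested genes, 2093 were under 0.05 unadjusted in T compared with C. Of 24 tested glucocorticoid response genes, 23 were higher and 1 lower in TE than in E, with a median of 0.20 and 0 called by edgeR or DESeq2 (4 higher unadjusted in edgeR), and 22 were higher and 2 lower in T than in C, with 4 called higher by edgeR (15 unadjusted) and 9 by DESeq2. The highest of the list were Pdk4, a kinase that inhibits pyruvate dehydrogenase, with 201 FPKM in E and 230 in TE (adjusted p = 0.928 by edgeR), and the muscle ubiquitin ligase Trim63, with 174 and 175 FPKM (adjusted p = 0.964 by edgeR). The receptor co-chaperone Fkbp5 had 6.02 FPKM in C, 12.5 in E, 20.8 in T and 18.6 in TE, and the transcription factor Zbtb16 had 5.26, 13, 14.6 and 13.7 FPKM.

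Endothelial cells line the vessels of muscle, and their 24 markers summed to 1200 to 1460 FPKM in C, 1340 to 1560 in E, 1160 to 1840 in T and 1240 to 1580 in TE, with no marker at 0 in any group. In TE compared with E, 14 were higher and 10 lower, with 0 called by edgeR (4 higher and 3 lower unadjusted) and 1 by DESeq2. The highest of the list were the fatty acid binding protein Fabp4, with 517 FPKM in E and 475 in TE (adjusted p = 0.9 by edgeR), and the water channel Aqp1, with 337 and 414 FPKM (adjusted p = 0.528 by edgeR). In T compared with C, 17 were higher and 7 lower (11 higher and 3 lower unadjusted, against 2093 of all 14749 tested genes). DESeq2 called 5 of which 2 were higher, and edgeR called 1, the receptor Kdr, which was lower (15.8 FPKM in C and 9.68 in T, log2 fold change -0.68, adjusted p = 0.0457). Over mice within groups, 8 of 13 lists had a positive r with all 5 genes. For the mean of the endothelial markers, each scaled to unit SD, r ran from 0.358 for Slc10a6 to 0.703 for Tmem252 (rho = 0.565, permutation p = 0.0108, adjusted p = 0.145), and the latter was 0.476 without T mice 3 and 4. Over 13 lists and 5 genes, 0 of 65 such correlations passed after adjustment by r or rho (10 unadjusted by r), with a smallest adjusted p of 0.138 by r from permutation, for the carrier list and Map3k6 (r = 0.726).

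Of the markers of blood and immune cells, edgeR called erythroid genes in TE compared with E. In TE compared with E, 10 of 10 tested neutrophil markers were higher with 0 called by edgeR (6 unadjusted) and 4 by DESeq2, and 7 of 7 tested erythroid markers were higher with 5 called by edgeR. These were Alas2, the first enzyme of heme synthesis in red cells, and the hemoglobin genes Hba-a1, Hba-a2, Hbb-bs and Hbb-bt. Of 13 tested macrophage markers, 11 were higher and 2 lower with 0 called by edgeR (1 unadjusted) or DESeq2, and of 18 lymph node markers 17 were higher and 1 lower with 0 called by edgeR (0 unadjusted) or DESeq2. The lymph node count rested on TE mouse 4, since without it 0 of 18 were higher and 18 lower, with 0 called by edgeR. Of 10 adipocyte markers, 2 were higher and 8 lower, and of 17 muscle fiber markers 13 were higher and 4 lower, with 0 of either called by edgeR (3 muscle fiber markers higher and 0 adipocyte markers unadjusted) or DESeq2. Between T and C, 9 of 10 neutrophil markers were higher in T with 5 called by edgeR, 7 of 7 erythroid markers were higher with 4 called by edgeR, and 13 of 13 macrophage markers were higher with 0 called by edgeR (6 unadjusted) and 2 by DESeq2. Lymph node markers went the other way there, with 17 of 18 lower in T and 0 called by edgeR (8 unadjusted) and 1 by DESeq2. Unadjusted, 2093 of all 14749 tested genes were under 0.05 in T compared with C. The highest markers by mean over the groups had these levels in E and TE, namely the calgranulins S100a9 (2.87 and 16.4 FPKM) and S100a8 (1.37 and 7.92) for neutrophils, Lyz2 (62.6 and 62.2) and C1qa (9.44 and 12.4) for macrophages, and Ccl21a (19 and 16.5) and Glycam1 (1.48 ± 1.91 and 10.4 ± 20.8, SD, n = 4) for lymph nodes. Those of the remaining lists were Car3 (616 and 507 FPKM) and Fabp4 for adipocytes, and the actin Acta1 (19700 and 21000) and the creatine kinase Ckm (14700 and 16200) for muscle fibers.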

How the data were processed

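PolyA RNA of the gastrocnemius of 16 mice was sequenced, and each mouse's group and number come from its labels. The authors trimmed reads with fastp 0.20.1, aligned them to GRCm39 with HISAT2 2.1.0 and deposited raw counts per gene from HTSeq 0.11.2 (tools and versions from the submitters' processing notes). The annotation release and strand setting are not given in the sources used here. The authors also deposited FPKM values, which equal these counts divided by a length per gene and the library total, as checked for 16037 genes with more than 50 counts. Libraries held 35628211 to 37635741 counts, so 3 counts were at most 0.0842 CPM, and such floors cover counting error only.

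Counts were tested with edgeR 4.0.16 in R 4.3.3 (TMM, filterByExpr, glmQLFit and glmQLFTest, a coefficient per group, all 16 libraries, two-sided, Benjamini-Hochberg over the 14749 tested genes, threshold 0.05). On simulated counts for TE compared with E, run on 14586 genes, the test called 82% of genes changed by a log2 fold change of 1 and 99.1% of those changed by 2, and it also called 10 unchanged genes. Correlations used group-centred log2 CPM with a prior count of 2 and 100000 permutations of mice within groups, or all permutations for 8 mice. Those with a gene list used the mean of its tested genes, each scaled to unit SD, and not the summed FPKM. Motifs and positions used GRCm39 with GENCODE M39. Figures were drawn with matplotlib 3.10.9.

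The 5 genes and the gene lists were chosen with earlier results of these data known. Named from each list were up to 4 genes called in TE compared with E, by smallest p, or, with fewer than 2 called, its 2 highest genes by FPKM. Also named were the 5 genes nearest to the mean of the members (each scaled to unit SD) and the 3 nearest to each member, by r. Other ceramidases, Map3k5, relatives of Slc10a6 and Grrp1, Fkbp5, Zbtb16, Kdr and the fifth called erythroid gene, Hbb-bt, were added after their values were seen. Alternatives were DESeq2 1.42.0, its size factors, no filter, only the groups compared, a robust fit, a replicate block, limma 3.58.1 on log2(FPKM + 1) or log2(FPKM + 0.1), genes with a mean FPKM of at least 1, other scales and subsets for correlations, and each mouse left out in turn. The counts of the gene lists without TE mouse 4 were added after seeing the data. The tables held 0 columns of other samples.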

Additional observations from a re-analysis of the deposited data

Results flagged for a closer look

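Tmem252 in the T group was far apart in a single mouse. T mouse 3 had 7.72 FPKM (714 counts), whereas the other T mice had 1.27 to 2.04 FPKM, and its gap to the next mouse was 0.881 of the range of the group. In that mouse the other 4 genes were also above their group means. Of the 20 groups of 4 mice that were examined this was the only such value, and chance gives such a value in about 1 of 20 groups.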

How the results depend on the processing

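In TE compared with E, 1 of the 5 genes was called, and the call was Grrp1. DESeq2 called 3, and 0 were called with a replicate block, with limma on log2(FPKM + 1), on log2(FPKM + 0.1) or on genes with a mean FPKM of at least 1, where Grrp1 had adjusted p-values of 0.0917, 0.154, 0.146 and 0.0593. Size factors, no filter, only the groups compared and the robust fit kept Grrp1, and over these 9 alternatives its adjusted p ranged from 0.000404 to 0.154. With a mouse left out, 0 to 2 genes were called. The call was lost when any single C or TE mouse or E mouse 1, 2 or 3 was left out, while the log2 fold change of Grrp1 stayed between 0.91 and 1.19, and without T mouse 3 Tmem252 was called as well (adjusted p = 0.0356 by edgeR). The cause was not tested. The same replicate numbers stand for different mice, and their deviations correlated between -0.241 and 0.214 in the same-numbered pairs, so they were not taken to pair the mice. The fitted directions in the 5 contrasts did not turn in any alternative, and the log2 fold change of Tmem252 in T compared with C ranged from 2.25 to 3.42 with a mouse left out. On log2(FPKM + 1), which understates the change of low genes, it was 1.39, and the other 4 genes had 0.94 to 1.19, while Map3k6 had 0.50 in E compared with C and -0.60 for the interaction. On that scale TE compared with E gave 0.82 for Tmem252, 0.62 for Slc10a6, 0.68 for Grrp1, 0.34 for Map3k6 and 0.33 for Acer2. Map3k6 in TE compared with E ranged from 0.323 without E mouse 1 to 0.879 without E mouse 2, and Acer2 from 0.286 to 0.67 without the same mice. The fit of only the groups compared could not be made for the interaction, which uses all groups.

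The number of correlated pairs was 0 in every alternative, and the median r ranged from 0.147 to 0.372, or from 0.197 to 0.373 with a mouse left out. The sign of r turned for Slc10a6 and Map3k6 with the replicate block (-0.012), for Tmem252 with Slc10a6 (-0.318), Map3k6 (-0.413) and Acer2 (-0.34) in tumor-free mice, for Acer2 and Grrp1 in tumor-bearing mice (-0.263), and without T mouse 3 for Tmem252 with Map3k6 (-0.009, and up to 0.321 with another mouse left out) and with Grrp1 (-0.006, and up to 0.316). Depth limits Tmem252 most, with 24 to 50 counts in tumor-free mice.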
